A study of Sus scrofa with 40 samples.

Results

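Heme oxygenases and the genes driven by the transcription factor NRF2 were followed in porcine kidney during warm ischemia (WI) and cold storage (CS). The 10 genes were HMOX1, HMOX2, NQO1, GCLC, GCLM, TXNRD1, SRXN1, NFE2L2, KEAP1 and FTH1. They were looked for among the 43803 non-control spots of a porcine 44k Agilent array, taking every spot whose gene name was a member symbol or whose description gave that symbol in brackets. This found 30 spots with 30 different probes, which stood for 13 of the 35955 transcript identifiers on the array and for 9 of the 10 genes. SRXN1, the sulfiredoxin that repairs overoxidised peroxiredoxins, had no row and was not analysed here. HMOX1 was read by 3 probes, HMOX2 by 1, NQO1 by 3, GCLC by 1, GCLM by 4 under 3 identifiers, TXNRD1 by 6 under 3 identifiers, NFE2L2 by 1, KEAP1 by 1 and FTH1 by 10.

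The 40 one-colour arrays held 8 groups of 5, from 3-month-old Large White pigs. Control kidneys (Ctl) were sampled directly after removal. WI kidneys were kept clamped for 60 min at 37 °C and then sampled. WI+CS6h and WI+CS24h kidneys had the same 60 min at 37 °C, were flushed with cold University of Wisconsin preservation solution and were sampled after 6 h and 24 h at 4 °C. Each state was read in the cortex (C) and in the corticomedullary junction (CMJ), the border zone between cortex and medulla. Per the labels the 5 kidneys of the WI+CS6h groups were the same kidneys as those of the WI+CS24h groups, so 15 kidneys stood behind the 40 arrays, and the labels did not tie array numbers to kidneys. No group was reperfused, no kidney was cold stored without warm ischemia, and every array read the RNA of a whole tissue piece.

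Heme oxygenases open the heme ring and release carbon monoxide, iron and biliverdin. HMOX1 is the inducible enzyme, held down by the repressor BACH1 and switched on by NRF2, while HMOX2 is the constitutive form. NRF2, encoded by NFE2L2, is kept low by KEAP1, which hands it to the proteasome until oxidants or electrophiles modify KEAP1. NRF2 then drives genes of quinone reduction (NQO1), glutathione synthesis (GCLC and GCLM), thioredoxin and sulfiredoxin recycling (TXNRD1 and SRXN1) and iron storage (FTH1). In the kidney this system is known for limiting oxidative injury of the tubules.

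The probes of the members whose values differed between groups are shown, since HMOX1 and TXNRD1 were each read at several places of their transcript. Each line gives a 30-base stretch of a 60-base probe, 5′ to 3′, as the deposited array files print it, with the polyadenylation hexamer AATAAA in capitals where a probe held it.
HMOX1 probe 1, bases 26 to 55: tttatgtgaagtAATAAAgtacatggcctg
HMOX1 probe 2, bases 1 to 30: accacatctacgatgccctggaggaggaga
HMOX1 probe 3, bases 1 to 30: tcccttttgacgtgccttgactgccttcct
HMOX2 probe, bases 6 to 35: aaacaagcacccAATAAAagccagatgcta
TXNRD1 NM_214154 probe 1, bases 1 to 30: tatttattttgtcatttgtctcagacatga
TXNRD1 NM_214154 probe 2, bases 1 to 30: acagctaaggccactaacagtgacgaaacc
TXNRD1 NM_214154 probe 3, bases 1 to 30: atgtactgactacaggttgtctgtaagcca
TXNRD1 NM_214154 probe 4, bases 1 to 30: tgtgtgtgtctcggctcaacacgaagtggt
The longest run that any of the 3 HMOX1 probes shared with another was 6 bases, so they read different stretches of the transcript. The hexamer AATAAA was present on the probe strand in 4 of the 30 member probes and in 9.6% of the 43603 probes of that length, and on the other strand in 1 member probe and in 4.2% of all. No genome came with the files, so the probes were given no coordinates.

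Of all spots, 57.0% to 69.9% were well above background on an array. SLC12A1, the salt transporter of the thick ascending limb that enters the medulla, was 1.24 log2 units higher in Ctl CMJ than in Ctl cortex (adjusted p = 0.0119). The 4 cold-stored arrays numbered 5 stood apart. The summed linear signal of 12 proximal tubule genes was 83644 to 92452 on them and 120443 to 178765 on the other 36 arrays. That of 10 leukocyte genes was 1676 to 2472 against 173 to 402, which came from S100A12, a calcium-binding protein of neutrophils, at levels of 10.5 to 11.2 against 2.17 to 6.30. Without S100A12 the leukocyte sum was 116 to 219 on these arrays and 159 to 363 on the others. Of 6 identifiers of T cell genes CD2, CD3D, CD3E and CD8A, 5 or 6 were lowest in their group on each cold-stored number 5. CD4, also on the leukocyte list, did not follow this in cortex. On number 5 it was the highest of its group in WI+CS6h cortex (1.78) and mid-range in WI+CS24h cortex (1.38). In WI+CS6h CMJ and WI+CS24h CMJ it was the lowest (0.93 and 1.12). For the members and the named pathway genes, values without the cold-stored arrays numbered 5 are given where the call changed. In tissue pieces, fewer cells of a type and less RNA per cell cannot be told apart.

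Levels are normalised log2 signals (1 unit is a 2-fold step), and a log2 fold change is the difference between the means of 5 arrays. An identifier was said to rise or fall where the moderated limma test gave an adjusted p under 0.05 over all identifiers and the log2 fold change reached 0.5 in size. Precision was limited by the 5 arrays a group. The 13 identifiers include FTH1, which was saturated, and a TXNRD1 identifier that was mostly not above background, so 11 carried a usable fold change.

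After WI alone no member rose or fell. In the cortex this was 0 of 13 identifiers, where 0.0946% of all 35939 tested identifiers were called. Under an unadjusted p of 0.05 were 2 of the 13, beside 1758 of the 35939. In the CMJ it was 0 of 13, where 0.687% of 35938 were called, and again 2 were under an unadjusted p of 0.05, beside 4410 of the 35938. Cold storage gave few calls among the members. Versus Ctl, WI+CS6h cortex had 1 rise and no fall among the 13 (4.02% of all identifiers were called), and WI+CS24h cortex had 1 rise and 1 fall (2.5% called). In the CMJ, WI+CS6h had 1 rise (3.19% called) and WI+CS24h had none (3.65% called), with 2 under an unadjusted p of 0.05 (6362 of all 35938). Versus WI, WI+CS6h cortex had 1 rise and 1 fall (1.93% called) and WI+CS24h cortex had none (1.2% called), with 5 under an unadjusted p of 0.05 (4104 of all 35939). In the CMJ versus WI, WI+CS6h had none (2.78% called), with 4 of the 11 measurable identifiers under an unadjusted p of 0.05 (6065 of all 35938), and WI+CS24h had 1 fall (2.85% called). The counts of 1 and 2 are 7.69% and 15.4% of the 13, above the background shares, but each rests on 1 or 2 identifiers and nothing about the members as a set is read from it. The calls versus Ctl and those versus WI share the cold-stored arrays, and those at the different times share their Ctl or WI arrays. The median log2 fold change of the 11 measurable identifiers lay between -0.06 and 0.15 over these 10 comparisons, and that of all identifiers between -0.01 and 0.05.

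HMOX1 (NM_001004027) rose after cold storage, by 1.78-fold in WI+CS6h cortex, 1.72-fold in WI+CS24h cortex and 1.80-fold in WI+CS6h CMJ versus the matching Ctl. The Ctl cortex arrays, numbers 1 to 5 in order, read 9.99, 10.002, 10.01, 9.97 and 10.05, and the WI cortex arrays read 9.98, 10.31, 10.20, 10.08 and 10.21. WI+CS6h cortex read 11.29, 11.10, 10.79, 10.30 and 10.73, and WI+CS24h cortex read 11.28, 11.17, 10.40, 10.51 and 10.59. All 10 cold-stored cortex arrays lay above all 5 Ctl arrays, with numbers 1 and 2 the highest at both times, while WI overlapped Ctl. In the CMJ, Ctl read 9.99, 9.82, 9.94, 9.48 and 9.77, and WI read 9.74, 9.99, 9.93, 10.11 and 9.94. WI+CS6h CMJ read 11.07, 11.23, 10.41, 10.01 and 10.52, and WI+CS24h CMJ read 10.91, 11.25, 10.01, 10.08 and 10.54. Again every cold-stored array lay above every Ctl array, numbers 1 and 2 were the highest at both times, and only WI+CS6h number 4 and WI+CS24h numbers 3 and 4 reached into the WI range.

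**Figure D1:**
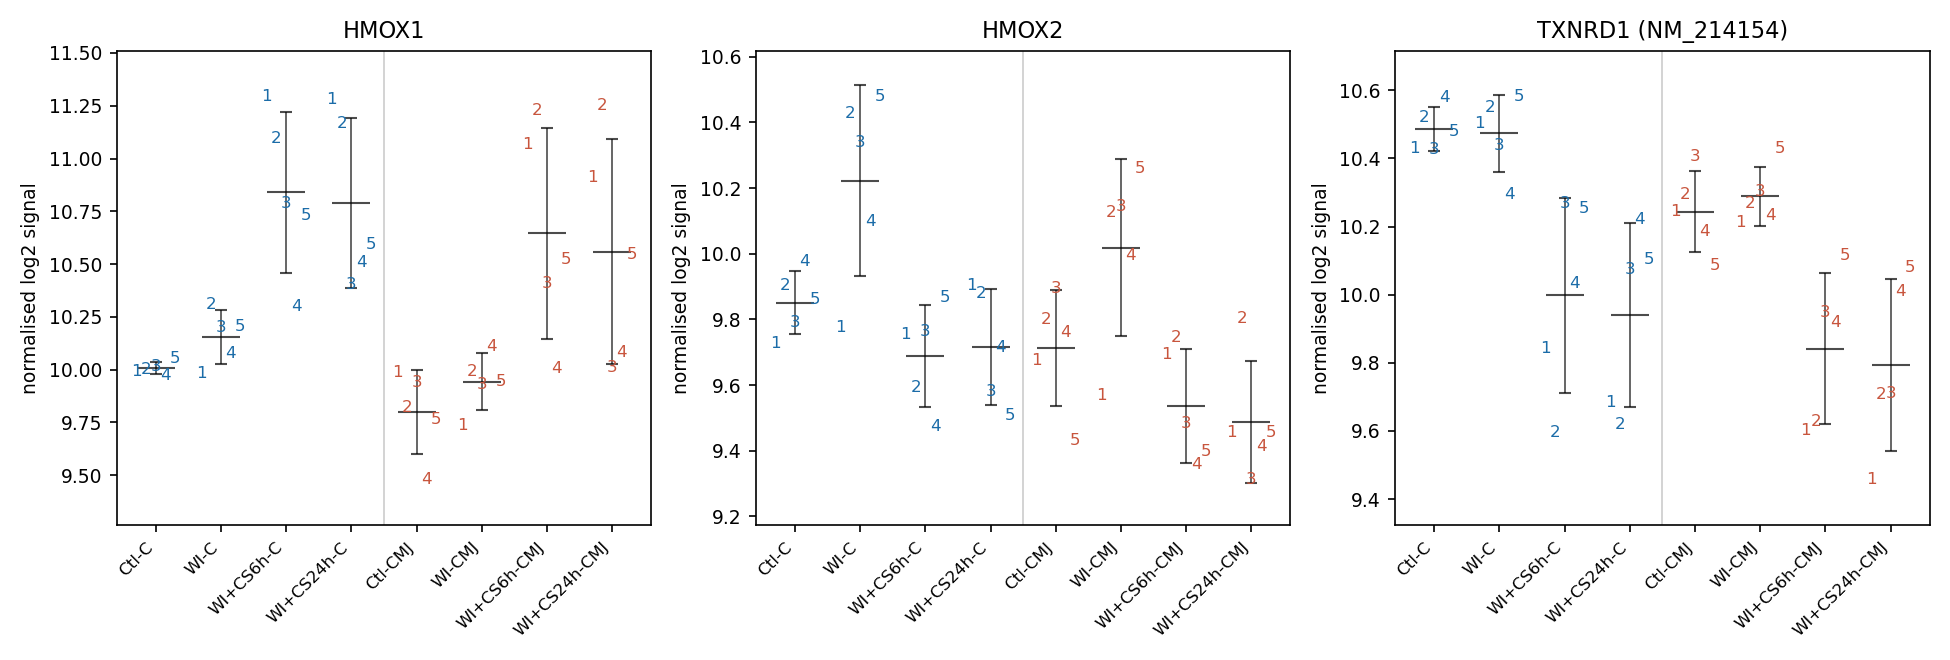
Normalised log2 signal (y axis) of HMOX1, HMOX2 and TXNRD1 NM_214154 on each of the 40 arrays by group (x axis); each digit is an array number, blue for cortex and red for CMJ, and the black line and bar are the group mean ± SD (n = 5). HMOX1 cold-stored arrays lie above all Ctl arrays of the same tissue, HMOX2 is highest in the WI groups, and TXNRD1 is lower in the cold-stored groups, with the exception of WI+CS6h CMJ number 5, which lies just above the lowest Ctl CMJ array.

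The group means of HMOX1 were 10.01 ± 0.03 (SD, n = 5) in Ctl cortex and 10.15 ± 0.13 in WI cortex, and the spread was wider after cold storage, with 10.84 ± 0.38 at 6 h and 10.79 ± 0.40 at 24 h. Versus Ctl cortex the log2 fold change was 0.83 ± 0.18 (SE; 95% CI 0.46 to 1.21, limma adjusted p = 0.011) at 6 h and 0.78 ± 0.18 (0.41 to 1.16, adjusted p = 0.0206) at 24 h. CMJ means were 9.80 ± 0.20, 9.94 ± 0.13, 10.65 ± 0.50 and 10.56 ± 0.53 in the same order of groups. There the log2 fold change versus Ctl was 0.85 ± 0.23 (0.36 to 1.34, adjusted p = 0.0462) at 6 h and 0.76 ± 0.23 (0.27 to 1.25, adjusted p = 0.0708) at 24 h, the latter short of the threshold with all arrays apart. The time of storage made no detectable difference, with -0.05 (-0.42 to 0.32) in cortex and -0.09 (-0.58 to 0.40) in CMJ for 24 h over 6 h. These intervals come from a fit that did not pair the kidneys shared by the 2 times. Between arrays of the same number the difference ran from -0.38 to 0.21 in cortex and from -0.40 to 0.07 in CMJ.

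WI kidneys had the same clamp, but neither the flush with preservation solution nor the hours of storage at 4 °C, which cannot be told apart here. Set against them, HMOX1 was 0.69 ± 0.18 higher in WI+CS6h cortex (0.31 to 1.06, adjusted p = 0.0489), a rise at the edge of the threshold. All 5 arrays lay above the WI mean, and number 4 overlapped the WI arrays. The other values were 0.63 (adjusted p = 0.0902) in WI+CS24h cortex, where the arrays did not overlap, 0.70 (adjusted p = 0.109) in WI+CS6h CMJ and 0.62 (adjusted p = 0.171) in WI+CS24h CMJ. WI versus Ctl gave 0.15 (-0.22 to 0.52, adjusted p = 1) in cortex and 0.14 (-0.35 to 0.64, adjusted p = 0.884) in CMJ.

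The rise of HMOX1 in WI+CS6h cortex passed the test in 10 of 10 fits that left out 1 array, with log2 fold changes of 0.72 to 0.97, and in 5 of 10 at 24 h (lost without Ctl number 1, 2 or 3, or WI+CS24h number 1 or 2, adjusted p 0.0133 to 0.064). The CMJ rise at 6 h and the rise over WI in cortex each passed in 1 of 10, only without WI+CS6h number 4 of that tissue, and their adjusted p ran from 0.0187 to 0.131 and from 0.0121 to 0.136. Within slides that held both groups HMOX1 was higher on 4 of 4 slides in WI+CS6h cortex (0.68 to 1.28), on 2 of 2 in WI+CS24h cortex (0.40 to 1.17) and on 4 of 4 in WI+CS6h CMJ (0.42 to 1.46). On the 2 scan days the WI+CS6h cortex values were 0.79 (adjusted p = 0.45) and 0.86 (0.102), those of WI+CS24h cortex 0.98 (0.158) and 0.49 (0.628), those of WI+CS6h CMJ 1.02 (0.62) and 0.73 (0.35), and those of WI+CS6h over WI cortex 0.71 (0.587) and 0.61 (0.373), so none passed in the 2 or 3 arrays a group that a day held. With slide as a block only the rise in WI+CS6h cortex versus Ctl passed, at 0.96 (adjusted p = 0.0244), and the others were 0.85 (0.147) in WI+CS24h cortex, 0.91 (0.053) in WI+CS6h CMJ and 0.62 (0.526) over WI in cortex. Without the cold-stored arrays numbered 5 the value was 0.86 (adjusted p = 0.0202) and 0.83 (0.0228) in cortex at 6 h and 24 h, 0.88 in WI+CS6h CMJ (0.0666, lost) and 0.71 over WI in cortex (0.0648, lost).

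The 3 HMOX1 probes moved together after cold storage but not after WI. In WI+CS6h cortex versus Ctl, probes 1, 2 and 3 gave 0.70 (adjusted p = 0.0402), 0.98 (0.00363) and 0.82 (0.0191), all of them past the test in a fit per probe. At 24 h they gave 0.64 (adjusted p = 0.0774), 0.94 (0.00603) and 0.77 (0.0333). In WI cortex versus Ctl, probe 2 stood at 0.45 ± 0.18 (unadjusted p = 0.0205, adjusted p = 0.807) while probes 1 and 3 stood at 0.01 and -0.02, and in WI CMJ probe 2 stood at 0.47 (unadjusted p = 0.0686). Over WI in cortex only probe 3 passed, with 0.84 (adjusted p = 0.0236) at 6 h and 0.79 (0.0411) at 24 h, and probe 2 had the smallest values, 0.53 and 0.48. The probes thus differed in how much of the change was already present in WI, a difference that was not tested.

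**Figure D2:**
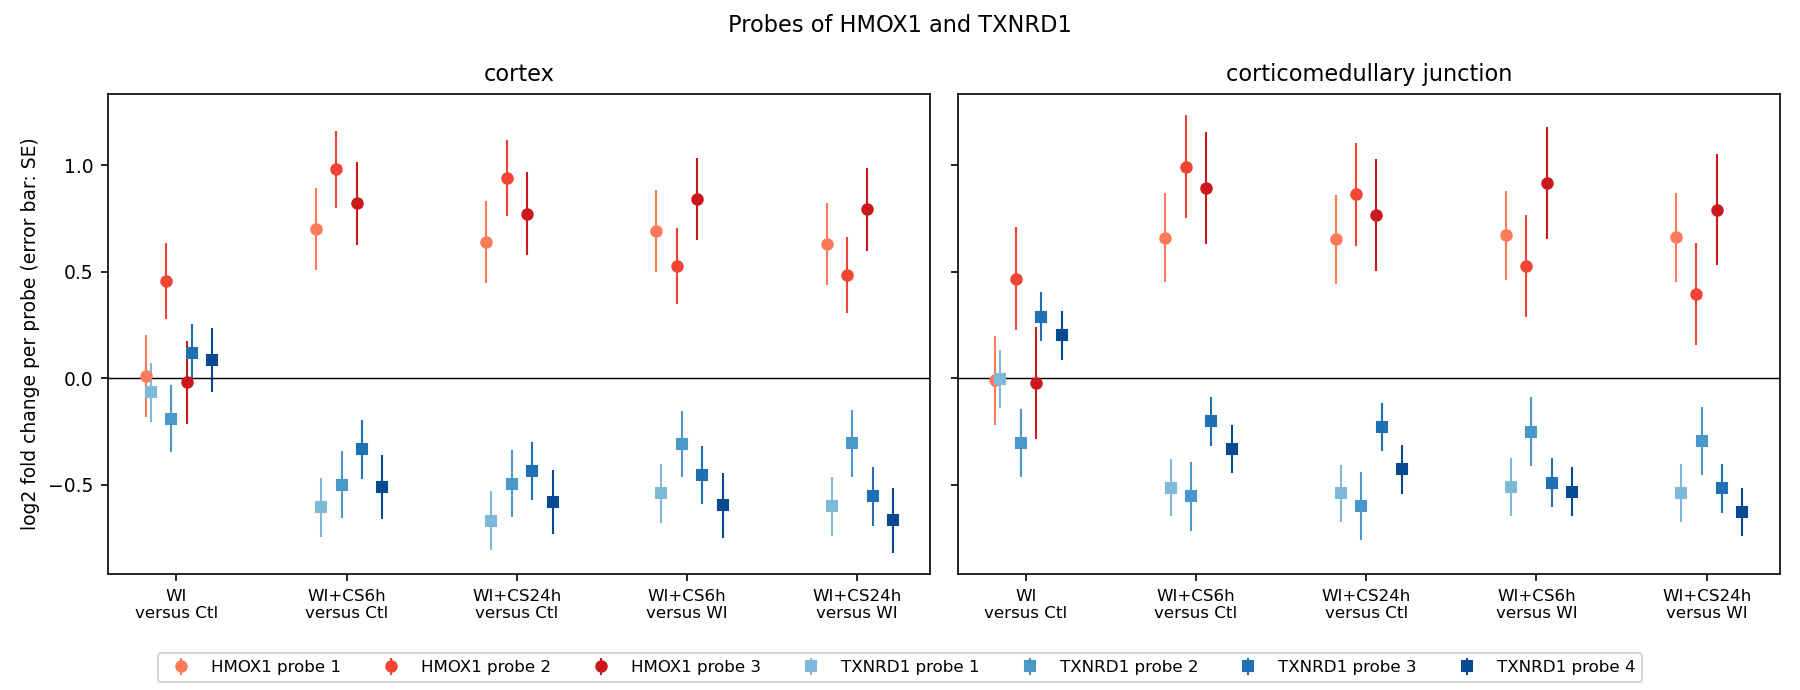
Log2 fold change (y axis, ± SE) of each probe by comparison (x axis) for HMOX1 (3 probes, red circles) and TXNRD1 NM_214154 (4 probes, blue squares). In WI+CS6h cortex versus Ctl the HMOX1 probes lie between 0.70 and 0.98 and the TXNRD1 probes between -0.61 and -0.34, and in WI cortex HMOX1 probe 2 lies at 0.45, away from the other two.

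Markers of other cells were set beside HMOX1 because macrophages can express it strongly. The summed linear signal of 12 macrophage genes was 4157 to 8350 over all 40 arrays and overlapped between the groups of each tissue, and 2 of the genes fell versus WI in the CMJ, FCER1G by 0.54 (adjusted p = 0.0168) at 6 h and C1QC by 0.52 (adjusted p = 0.042) at 24 h. The sum of 3 glomerulus genes was, within each cold-stored group, highest on the 2 arrays with the highest HMOX1, at 1251 to 1673 on those numbered 1 and 2, against 1007 to 1272 on the other cold-stored arrays and 810 to 1210 in Ctl and WI. Most of this sum came from CLIC5, with Ctl cortex means of 9.23 and 8.67 for its identifiers, against 5.80 for WT1 and 5.45 for PODXL. S100A12 also differed, at 2.17 to 3.26 on cold-stored arrays numbered 1 and 2 and 3.69 to 6.30 on those numbered 3 and 4. Of 11 identifiers of the thick limb and collecting duct, SCNN1G, a sodium channel subunit, rose versus Ctl by 0.65 in WI+CS6h cortex and by 0.66 and 0.85 in CMJ at 6 h and 24 h, and HSD11B2, the enzyme that inactivates cortisol, rose by 0.59 and 0.57 in cortex and by 0.67 in WI+CS24h CMJ. AQP3, a water channel of the collecting duct, fell versus WI by 0.63 and 0.65 in cortex and by 0.88 at both times in CMJ. The summed signal of this list was 16523 to 20745 in cold-stored and 12826 to 18611 in Ctl cortex, and 17412 to 23014 against 16652 to 24952 in CMJ, with overlap. Of 8 endothelial identifiers the 2 of KDR, a receptor for vascular growth factor, rose in CMJ versus Ctl by 0.53 and 0.59 at 6 h and 0.63 and 0.65 at 24 h, while the sum overlapped at 3368 to 5558 against 3236 to 4980. In single contrasts, LPL of the fat cell list rose by 1.06 in WI+CS6h cortex and SLC22A8 of the proximal tubule list by 0.79 in WI+CS6h CMJ versus Ctl. The part of these markers in the HMOX1 result was not tested.

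HMOX2 (NM_001244412), the constitutive heme oxygenase, had another course, with its highest means after WI and a fall from there in cold storage. The Ctl cortex arrays read 9.73, 9.90, 9.79, 9.98 and 9.86, and the WI cortex arrays read 9.78, 10.43, 10.34, 10.10 and 10.48. WI+CS6h cortex read 9.75, 9.59, 9.76, 9.47 and 9.87, and WI+CS24h cortex read 9.90, 9.88, 9.58, 9.71 and 9.51. WI arrays 2 to 5 lay above every other cortex array, and number 1 lay within the Ctl range. In the CMJ, Ctl read 9.67, 9.80, 9.89, 9.76 and 9.43, and WI read 9.57, 10.12, 10.14, 9.99 and 10.26. WI+CS6h CMJ read 9.69, 9.74, 9.48, 9.36 and 9.40, and WI+CS24h CMJ read 9.46, 9.80, 9.31, 9.41 and 9.46. The same picture held there, with WI numbers 2 to 5 above all others and number 1 low.

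From WI to WI+CS6h cortex, HMOX2 fell by 0.53 ± 0.12 on the log2 scale (95% CI of the difference -0.80 to -0.27, fold 0.691, adjusted p = 0.0306). From WI to WI+CS24h CMJ it fell by 0.53 ± 0.13 (-0.80 to -0.26, fold 0.693, adjusted p = 0.0269). The other cold-stored groups missed a threshold, with -0.51 (adjusted p = 0.0505) in WI+CS24h cortex and -0.48 (adjusted p = 0.0437, under the fold limit) in WI+CS6h CMJ. All cold-stored arrays lay below the WI mean of their tissue, and each group overlapped WI through WI number 1. WI stood above Ctl by 0.37 (0.11 to 0.63, unadjusted p = 0.00823, adjusted p = 0.677) in cortex and by 0.31 (0.03 to 0.58, unadjusted p = 0.0292, adjusted p = 0.326) in CMJ, which did not pass. Versus Ctl the cold-stored groups were at -0.16, -0.14, -0.18 and -0.22 for cortex at 6 h and 24 h and CMJ at 6 h and 24 h (adjusted p 0.399 to 0.645).

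HMOX2 rested on 1 probe, and its falls passed in 3 of 10 fits without 1 array, with -0.65 to -0.47 for the cortex and -0.64 to -0.47 for the CMJ. Within slides it was lower on 2 of 2 in WI+CS6h cortex (-0.89 to -0.62) and on 4 of 4 in WI+CS24h CMJ (-0.81 to -0.19). With slide as a block the cortex value was -0.67 (adjusted p = 0.305, lost) and the CMJ value -0.62 (0.0401), and with the replicate number as a block the cortex call was lost too (adjusted p = 0.0547). By scan day the cortex values were -0.46 (adjusted p = 0.52) and -0.71 (0.227), and the CMJ values were -0.37 (0.777) and -0.77 (0.0403). With the cold-stored arrays numbered 5 left out, the log2 fold changes were -0.58 (adjusted p = 0.026) and -0.52 (0.0465). Summed over 10 adipocyte genes, the linear signal was 3319 to 5585 in WI CMJ and 2873 to 3249 in the cold-stored CMJ, with no overlap. Ctl CMJ, at 3078 to 3843, overlapped both. In cortex the sum was 2991 to 3699 in WI and 2849 to 3422 after cold storage, with overlap. CFD, the brightest gene of this list, fell by 0.65 in WI+CS6h CMJ versus WI (limma adjusted p = 0.0349). The difference in the fat cell sum between WI and cold-stored CMJ lies behind every contrast of cold storage with WI in the CMJ, those of TXNRD1 and the pathway genes included. Its part in them was not tested.

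TXNRD1, the cytosolic thioredoxin reductase, was lower after cold storage at NM_214154 and fell by 0.55 ± 0.13 on the log2 scale in WI+CS24h cortex versus Ctl (95% CI -0.83 to -0.27, fold 0.685, adjusted p = 0.0314). Ctl cortex arrays read 10.43, 10.52, 10.42, 10.58 and 10.48, and WI cortex arrays read 10.50, 10.55, 10.44, 10.29 and 10.58. WI+CS6h cortex read 9.84, 9.60, 10.27, 10.03 and 10.25, and WI+CS24h cortex read 9.68, 9.62, 10.07, 10.22 and 10.10. Every cold-stored cortex array lay below every Ctl and WI array, and numbers 1 and 2, the arrays with the highest HMOX1, were the lowest at both times. The CMJ arrays read 10.25, 10.29, 10.41, 10.19 and 10.09 in Ctl and 10.21, 10.27, 10.30, 10.23 and 10.43 in WI. WI+CS6h CMJ read 9.60, 9.63, 9.95, 9.92 and 10.12, and WI+CS24h CMJ read 9.46, 9.71, 9.71, 10.01 and 10.08. Each cold-stored CMJ array lay below all WI arrays, and only WI+CS6h number 5 reached above the lowest Ctl array.

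The other contrasts of NM_214154 stood just outside the call. Adjusted p was 0.0424 in WI+CS6h cortex versus Ctl (-0.49), 0.0312 in WI+CS24h CMJ versus Ctl (-0.45), 0.039 in WI+CS6h CMJ versus WI (-0.45) and 0.0225 in WI+CS24h CMJ versus WI (-0.50), each under the fold limit of 0.5. In WI+CS6h CMJ versus Ctl the value was -0.40 (adjusted p = 0.0609), and versus WI in cortex it was -0.48 (0.0696) and -0.53 (0.0538) at 6 h and 24 h. WI alone stood at -0.01 (-0.29 to 0.27) in cortex and 0.05 (-0.20 to 0.29) in CMJ. The fall in WI+CS24h cortex passed in 4 of 10 fits without 1 array (-0.62 to -0.47, adjusted p 0.0221 to 0.0948, lost without Ctl number 1, 2, 3 or 4, or WI+CS24h number 1 or 2). It was -0.51 (0.234) with slide as a block and -0.59 (0.154) and -0.44 (0.936) on the 2 scan days. The call was also lost with scaling to the 75th percentile, with normexp background correction and with the deposited log2 table. Leaving out the cold-stored arrays numbered 5 moved more contrasts past the call, with -0.55 (adjusted p = 0.0329) and -0.59 (0.0226) versus Ctl in cortex at 6 h and 24 h, -0.52 (0.00822) in WI+CS24h CMJ versus Ctl, -0.54 (0.0477) and -0.57 (0.0392) versus WI in cortex, and -0.52 (0.0115) and -0.57 (0.00606) versus WI in CMJ.

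Per probe, TXNRD1 NM_214154 was lower at all 4 places in WI+CS24h cortex versus Ctl, with -0.67 (adjusted p = 0.0102), -0.50, -0.44 and -0.58 (0.0403) for probes 1 to 4, of which probes 1 and 4 passed. At 6 h the values were -0.61 (adjusted p = 0.0157), -0.50, -0.34 and -0.51. A second TXNRD1 identifier, AK400562, was read by 1 probe at group means between 5.47 and 6.22. It stood at -0.63 ± 0.20 in WI+CS24h CMJ versus WI (adjusted p = 0.0945) and -0.53 (adjusted p = 0.167) in WI+CS6h CMJ, and at -0.19 to -0.29 versus Ctl, with no call. Without the cold-stored arrays numbered 5 it passed versus WI in CMJ, at -0.67 (adjusted p = 0.0297) at 6 h and -0.78 (0.0125) at 24 h. The third, AF277894, also passed in these 2 contrasts without those arrays, but it was well above background on 8 of 40 arrays only, none of them in Ctl CMJ or the cold-stored CMJ groups, so no fold change is given.

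Glutathione synthesis starts with glutamate-cysteine ligase, whose catalytic subunit is GCLC and whose modifier subunit is GCLM, and neither rose or fell. GCLC (ENSSSCT00000001660) read 4.99, 5.19, 5.17, 4.58 and 4.98 in Ctl CMJ and 5.38, 5.31, 5.31, 5.51 and 5.45 in WI CMJ. All WI CMJ arrays lay above all Ctl CMJ arrays, with a log2 fold change of 0.41 ± 0.12 (0.15 to 0.67, unadjusted p = 0.0034, adjusted p = 0.123). The cortex difference was 0.30 (0.01 to 0.58, unadjusted p = 0.0401, adjusted p = 0.994), with overlap. Versus Ctl the cold-stored groups were at 0.24 and 0.10 in cortex and 0.26 and 0.23 in CMJ at 6 h and 24 h, and versus WI all 4 were at or below -0.06, none past the test.

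The 3 GCLM identifiers did not move alike. XM_001926378 stood at 0.38 (0.03 to 0.73, unadjusted p = 0.0337, adjusted p = 0.195) in WI+CS6h cortex versus Ctl and at 0.40 (unadjusted p = 0.0254, adjusted p = 0.247) versus WI. Its arrays read 5.22, 5.47, 5.28, 5.11 and 5.48 in Ctl cortex and 5.84, 5.31, 6.09, 5.66 and 5.57 in WI+CS6h cortex, where number 2 lay within the Ctl range. ENSSSCT00000007546 stood at 0.30 (-0.01 to 0.61, adjusted p = 0.241) in the same contrast. TC522882 stood between -0.06 and 0.09 in all 10 contrasts versus Ctl or WI, and its cold-stored arrays numbered 5 read 9.73, 9.78, 9.77 and 9.76, the lowest of each of their groups. Number 5 was the lowest in WI CMJ too, at 9.84.

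NQO1 (NM_001159613), the quinone reductase often used as a readout of NRF2, gave no call, and its arrays lay between 4.64 and 6.35. In WI cortex versus Ctl its log2 fold change was 0.26 (-0.15 to 0.67). Versus Ctl, cold storage gave -0.08 (-0.49 to 0.33) and -0.16 (-0.57 to 0.25) in cortex and -0.25 (-0.63 to 0.13) and -0.09 (-0.47 to 0.29) in CMJ. The upper ends of these 4 intervals lay under the fold limit, and the lower ends reached it or came close to it. The largest contrast with cold storage was WI+CS24h versus WI in cortex, at -0.42 (-0.83 to -0.01, unadjusted p = 0.045, adjusted p = 0.419).

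**Figure D3:**
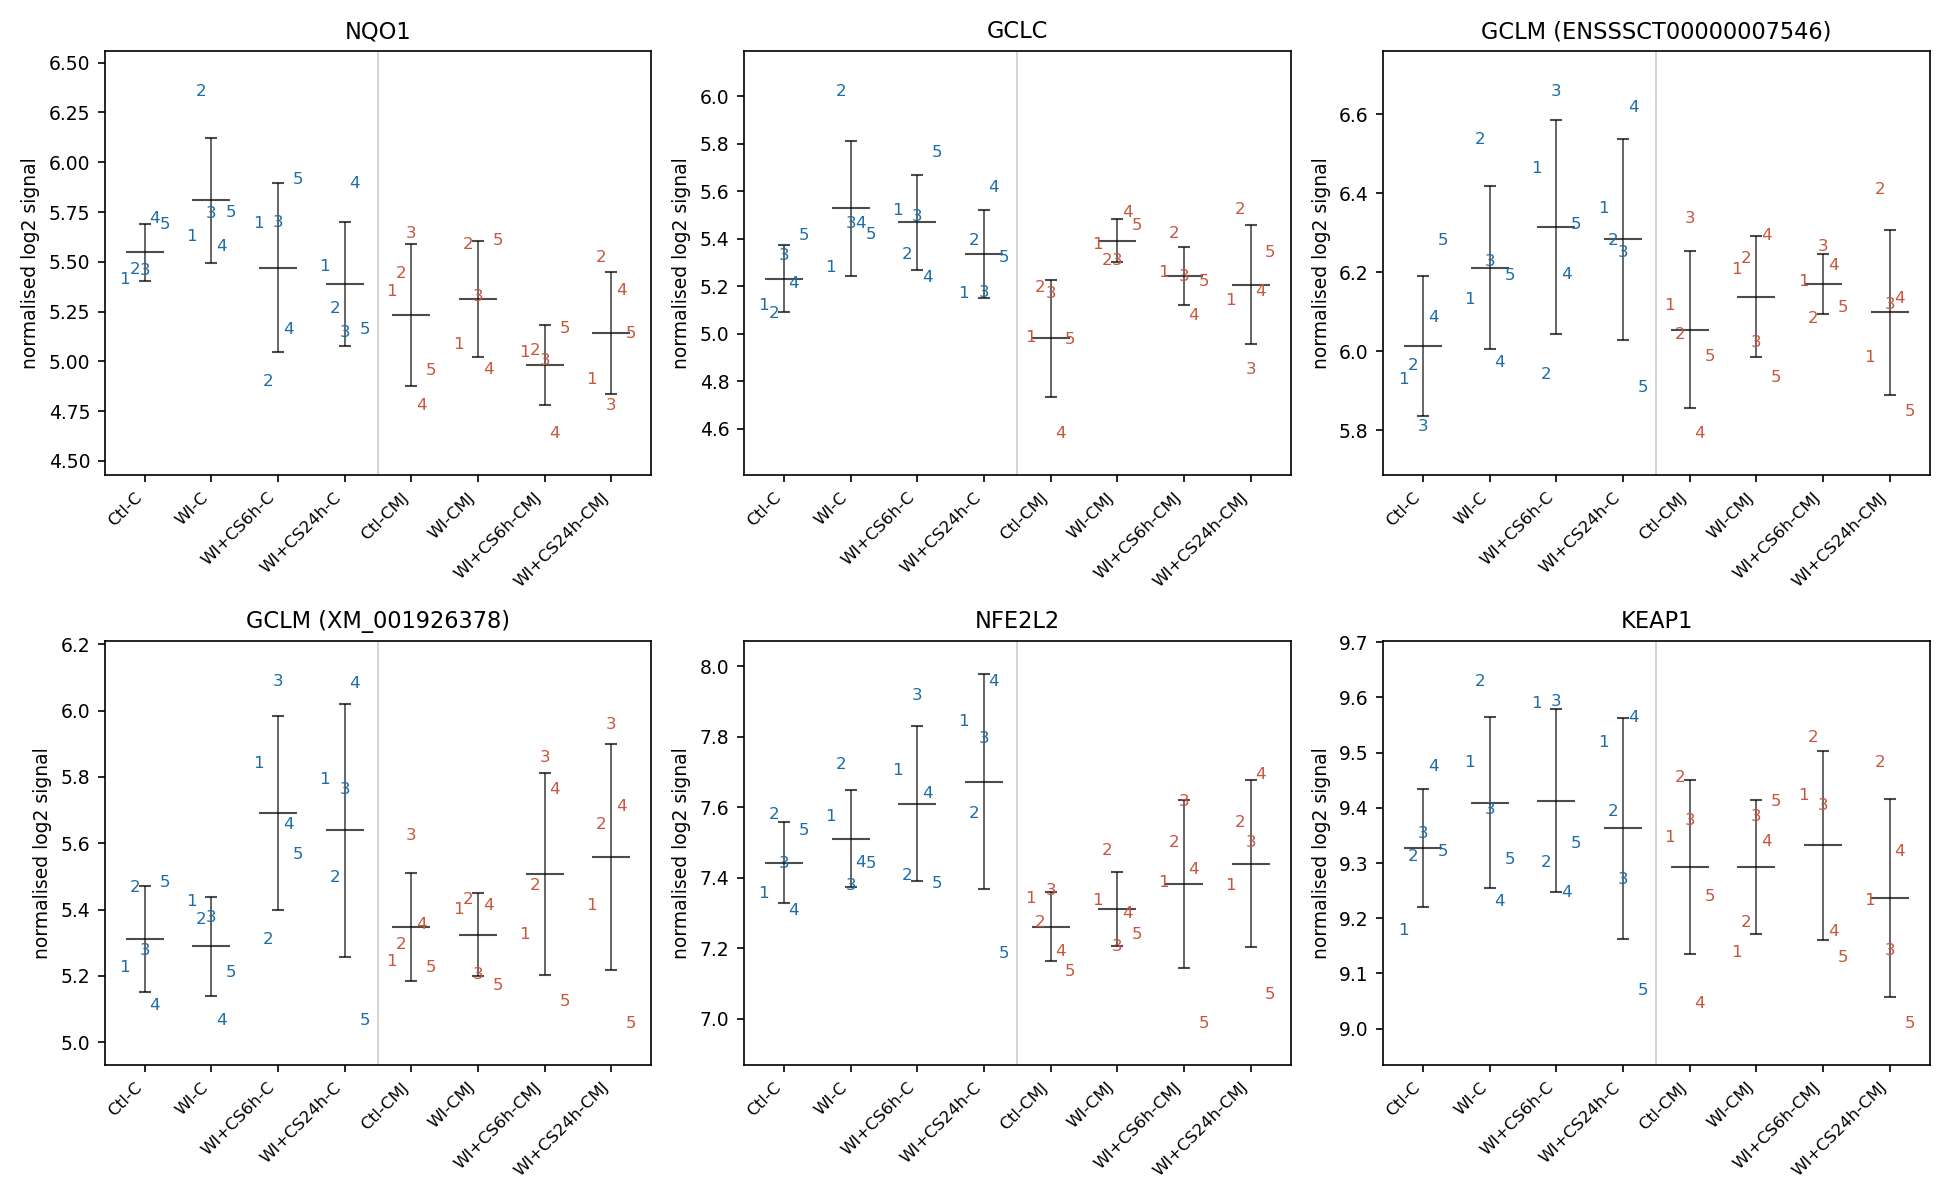
Normalised log2 signal (y axis) of NQO1, GCLC, 2 GCLM identifiers, NFE2L2 and KEAP1 on each array by group (x axis); digits are array numbers, blue for cortex and red for CMJ, and the black line and bar are the mean ± SD (n = 5). The cold-stored groups overlap Ctl in every panel, GCLC in WI CMJ, with a mean of 5.39, lies above all Ctl CMJ arrays, and number 5 is the lowest NFE2L2 array of each cold-stored group.

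NFE2L2 (ENSSSCT00000017408), which encodes NRF2 itself, and KEAP1 (NM_001114671), its inhibitor, gave no call in any contrast. NFE2L2 group means ran from 7.26 in Ctl CMJ to 7.67 in WI+CS24h cortex, and versus Ctl the cold-stored groups stood at 0.17, 0.23, 0.12 and 0.18 (adjusted p 0.426 to 0.708). On the cold-stored arrays numbered 5 it read 7.38, 7.18, 6.99 and 7.07, each the lowest of its group. WI+CS24h cortex otherwise read 7.84, 7.58, 7.79 and 7.96, all at or above the highest Ctl cortex array of 7.58. KEAP1 stood between -0.06 and 0.09 versus Ctl, with intervals that reached from -0.27 to 0.31. NRF2 is controlled mainly through the stability of the protein, which these arrays do not read.

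FTH1, the heavy chain of ferritin, could not be compared. Of its 10 probes, 7 were saturated on all 40 arrays and the others on 23, 28 and 38, so its levels of 15.8 to 16.0 are lower bounds and no fold change is given.

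**Figure D4:**
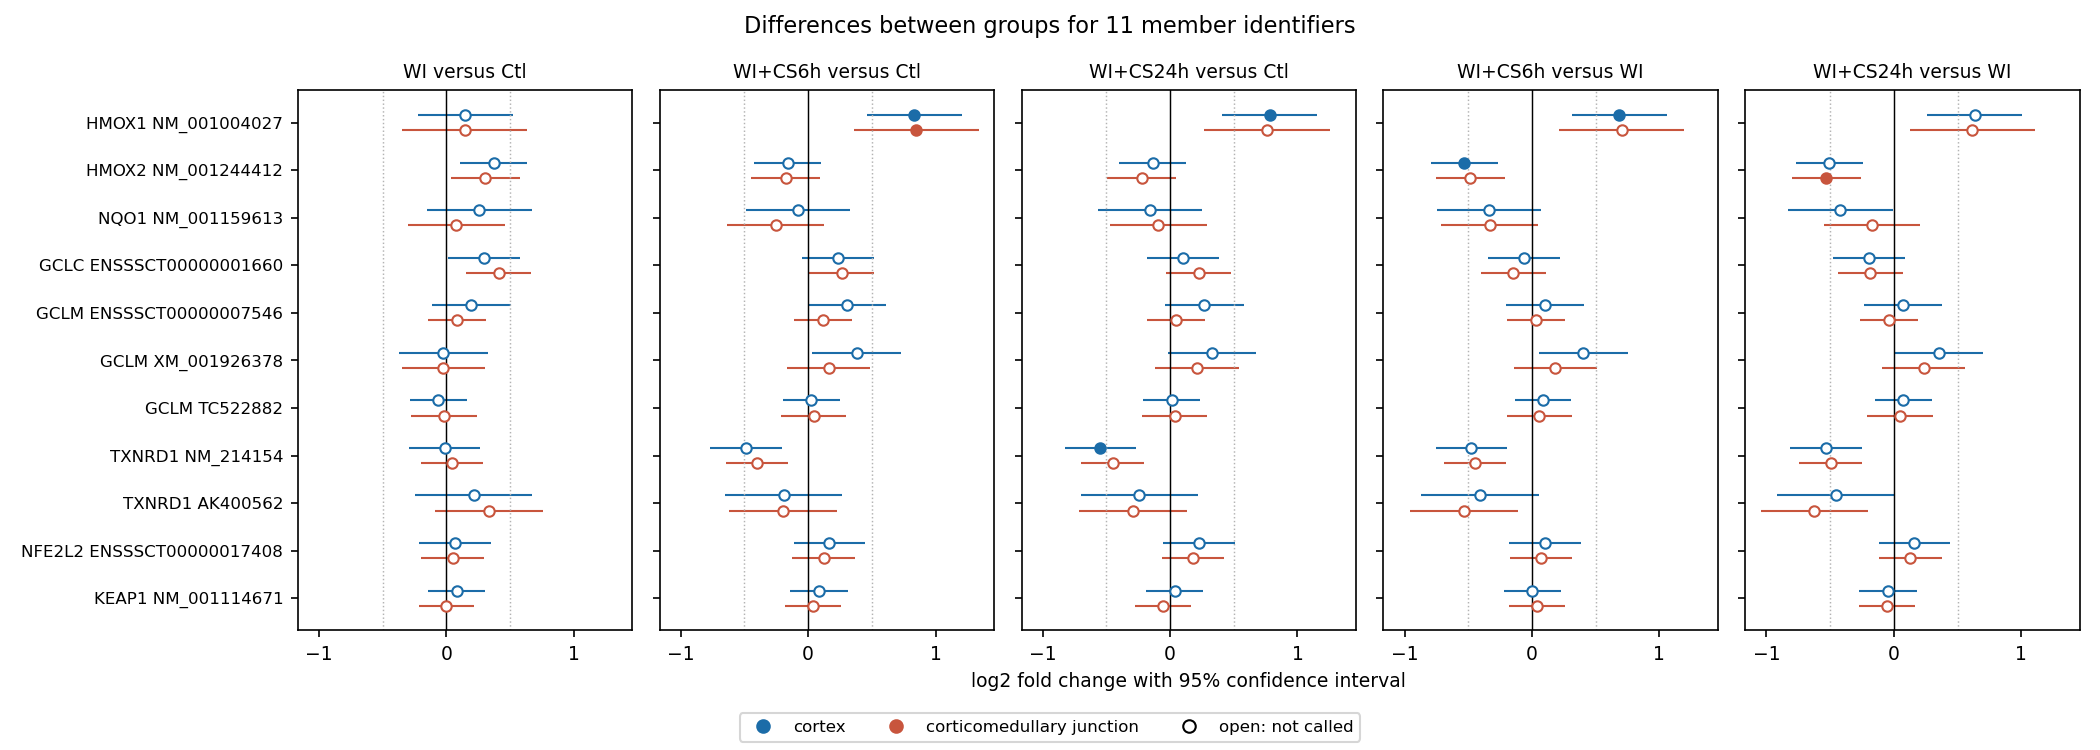
Log2 fold change with its 95% CI (x axis) of the 11 measurable member identifiers (rows) in 5 comparisons (panels), with cortex in blue and CMJ in red; filled points passed the test and dotted lines mark -0.5 and 0.5. HMOX1 is the only identifier past the test on the higher side, while HMOX2 and TXNRD1 NM_214154 are the only ones past it on the lower side.

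Between the tissues no member was called. At each of the 4 states 0 of 13 identifiers were called between CMJ and cortex, where 0.312% of 35934 identifiers were called in Ctl, 0.671% in WI, 0.0807% in WI+CS6h and 0% in WI+CS24h. The members under an unadjusted p of 0.05 numbered 0, 1, 1 and 0, beside 2190, 2579, 3440 and 1439 of the 35934. The medians of the 11 measurable identifiers were negative in all 4, from -0.18 to -0.14, and HMOX1 was lower in the CMJ by 0.19 to 0.23 without passing. NQO1 had the 2 smallest unadjusted p, at -0.50 (unadjusted p = 0.0137, adjusted p = 0.393) in WI and -0.49 (0.0146 and 0.424) in WI+CS6h. Taking the array numbers as pairs, HMOX2 (by 0.05 to 0.45) and NFE2L2 (by 0.02 to 0.46) were lower in the CMJ at 5 of 5 numbers in WI+CS24h, and a fit on these pairs called no member. For the interaction of tissue with treatment, 0 of 13 members and 0% of all identifiers were called in WI, WI+CS6h and WI+CS24h. No member had an unadjusted p under 0.05, beside 710, 1856 and 928 of all 35934 identifiers. The HMOX1 change from Ctl in the CMJ differed from that in the cortex by 0.01 (-0.59 to 0.62) at 6 h and -0.02 (-0.63 to 0.58) at 24 h, intervals wide enough to hold a difference as large as 0.5.

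Between 24 h and 6 h of cold storage 0 of 13 members were called in either tissue, and none had an unadjusted p under 0.05. Over all identifiers 0% were called in the cortex and 0.00278% in the CMJ, and 1119 of 35939 and 1238 of 35938 had an unadjusted p under 0.05. With the array numbers taken as the same kidneys, HMOX1 was higher at 24 h at 2 of 5 numbers in cortex and 3 of 5 in CMJ, and a fit on these pairs gave no member call.

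Genes of the wider pathway were read from lists of NRF2 targets, NRF2 regulators, heme and iron metabolism, and glutathione and thioredoxin metabolism. Of the 40, 27, 40 and 42 genes on the lists, 23, 9, 23 and 25 were on the array beside the members. Among the 27 identifiers of NRF2 targets, 2 rose in WI+CS6h cortex (7.41%, beside 4.02% of all identifiers) and 2 in WI+CS24h cortex versus Ctl (beside 2.5%), while in the CMJ 2 rose and 2 fell at 6 h (14.8%, beside 3.19%) and 2 rose and 1 fell at 24 h (11.1%, beside 3.65%). ABCC2 gave 2 of these identifiers, so the counts are of few genes and say nothing about the list. No NRF2 target was called after WI. The median of these 27 log2 fold changes was 0.19 at 6 h and 0.18 at 24 h in cortex and 0.10 at both times in CMJ, beside 0.05, 0.01, -0.01 and 0.004 over all identifiers. It already stood at 0.14 in cortex and 0.08 in CMJ after WI alone (all identifiers 0.01 and -0.01), and versus WI the cold-stored cortex gave medians of 0.05 at 6 h and 0.07 at 24 h, and the CMJ 0.05 and -0.01. None of the 12 identifiers of NRF2 regulators was called versus Ctl or WI.

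ABCC2, the apical export pump for glutathione conjugates in the proximal tubule, gave the clearest rise among the NRF2 targets. At XM_001929359 it read 10.86, 10.89, 10.85, 11.05 and 11.18 in Ctl cortex and 11.78, 11.43, 11.87, 11.60 and 11.54 in WI+CS6h cortex. Ctl CMJ read 10.48, 10.47, 10.70, 10.27 and 10.17, and WI+CS6h CMJ read 11.61, 11.58, 11.46, 11.23 and 11.10. No cold-stored array overlapped Ctl in either tissue. Versus Ctl the log2 fold change was 0.68 (adjusted p = 0.00123) and 0.60 (0.0036) in cortex and 0.98 (0.000205) and 0.94 (0.000293) in CMJ at 6 h and 24 h, and versus WI it was 0.71, 0.63, 0.92 and 0.88, all past the test. In WI alone this identifier stood at -0.04 and 0.06. A second ABCC2 identifier, ENSSSCT00000011534, rose versus Ctl by 0.57, 0.80 and 0.71 in WI+CS6h cortex, WI+CS6h CMJ and WI+CS24h CMJ and stood at 0.48 (adjusted p = 0.0449, under the fold limit) in WI+CS24h cortex. Versus WI it was called in none of the 4 contrasts, at 0.38 (adjusted p = 0.134) and 0.28 (0.383) in cortex and 0.61 (0.0612) and 0.52 (0.12) in CMJ, and WI alone stood at 0.20 and 0.19. Without the cold-stored arrays numbered 5 it passed versus Ctl in WI+CS24h cortex too, at 0.53 (0.0323), and versus WI in WI+CS6h CMJ, at 0.69 (0.0462).

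The other NRF2 targets that passed went in both directions. TKT, the transketolase of the pentose phosphate pathway, rose by 0.59 in WI+CS24h cortex (adjusted p = 0.0342) and stood at 0.52 (0.0516) at 6 h. It already stood at 0.37 (unadjusted p = 0.0235, adjusted p = 0.919) after WI alone, and cold storage versus WI gave 0.15 (0.673) and 0.23 (0.636), not called. Without the cold-stored arrays numbered 5 the 24 h value versus Ctl was 0.57 (adjusted p = 0.0566, lost), and a second TKT identifier, ENSSSCT00000025213, stood at 0.14 (0.571) on all arrays. GSTA4, the glutathione transferase for lipid aldehydes, fell by 0.74 (adjusted p = 3.74e-05) and 0.71 (6.51e-05) in CMJ versus WI at 6 h and 24 h, and by 0.50 (0.00095) versus Ctl at 6 h, where the value without the array numbered 5 was -0.48, under the fold limit. AKR1B1, the aldose reductase abundant in the medulla, fell by 1.498 ± 0.37 (adjusted p = 0.0273) and 1.40 (0.0358) in CMJ versus Ctl and was at 0.28 and 0.27 in cortex. After WI alone it stood at -1.17 (unadjusted p = 0.00565, adjusted p = 0.156) in CMJ, and cold storage versus WI gave -0.33 and -0.23, not called. Its Ctl CMJ arrays read 8.96, 8.19, 6.97, 9.10 and 9.86, a range that spanned nearly 3 log2 units and whose lowest array lay among the cold-stored ones, and the calls were lost without the cold-stored arrays numbered 5 (-1.47, adjusted p = 0.0528, and -1.31, adjusted p = 0.0811). AKR1B1 was also 1.83 log2 units higher in Ctl CMJ than in Ctl cortex (adjusted p = 0.00122).

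Of the 25 heme and iron identifiers, FLVCR2, a heme-binding membrane transporter, was the only one called. It fell in the CMJ versus Ctl by 0.50 (adjusted p = 0.00764) and 0.54 (0.00386) and versus WI by 0.53 (0.00668) and 0.57 (0.00363) at 6 h and 24 h. That is 4% of the list in each of these comparisons, beside 3.19% and 3.65% of all identifiers versus Ctl and 2.78% and 2.85% versus WI. In cortex it stood at -0.53 (adjusted p = 0.0912) and -0.39 (0.278) versus Ctl, and without the cold-stored array numbered 5 the 6 h value was -0.66 (0.0233) versus Ctl and -0.74 (0.018) versus WI, both past the test.

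Of the 30 glutathione and thioredoxin identifiers, 3 (10%) were called at each time in cortex versus Ctl, 2 higher and 1 lower, beside 4.02% and 2.5% of all identifiers, while versus WI in cortex 0 of 30 were called at either time. In the CMJ versus Ctl it was 1 at 6 h (3.33%, beside 3.19%) and 0 at 24 h (beside 3.65%), and none of the 30 was called for the interaction of tissue with treatment. ANPEP, the brush border aminopeptidase N, which can take part in glutathione breakdown, rose by 1.01 (adjusted p = 0.00963) and 0.96 (0.0165) in cortex and by 0.99 (0.0312) in WI+CS6h CMJ, where it was 1.02 (0.0507, lost) without the array numbered 5. Versus WI in cortex ANPEP stood at 0.75 (0.0695) and 0.70 (0.12). GGT1, which takes the glutamyl group off glutathione, rose by 0.63 (adjusted p = 0.0161) and 0.66 (0.0161) in cortex versus Ctl. It stood at 0.34 after WI alone, and cold storage versus WI gave 0.29 (0.36) and 0.32 (0.403), not called. In the CMJ it stood at 0.49 after WI and at 0.47 (0.0589) and 0.25 (0.361) after cold storage versus Ctl. GGT1 is also on the list of proximal tubule markers. TXNIP, the inhibitor of thioredoxin, fell by 1.27 (adjusted p = 0.0301) and 1.25 (0.0429) in cortex at ENSSSCT00000007319, where Ctl read 13.74, 13.75, 13.80, 13.78 and 13.53 and WI+CS6h read 12.39, 12.36, 12.96, 13.30 and 11.24. Without the lowest arrays, the cold-stored ones numbered 5, the value was -0.97 (adjusted p = 0.0234) and -1.02 (0.0169), and on all arrays the CMJ values were -1.23 (0.0794) and -1.25 (0.0673) versus Ctl. Versus WI in cortex it stood at -1.001 (0.12) and -0.98 (0.174). A second identifier, NM_001044614, stood at -0.97 (0.0992) and -0.89 (0.172) in cortex. SOD3, the extracellular superoxide dismutase, fell by 1.05 (adjusted p = 0.0467) in WI+CS6h CMJ versus WI. Without the array numbered 5 the value was -0.93 (adjusted p = 0.103, lost). After WI alone SOD3 stood at 0.84 in CMJ (unadjusted p = 0.00909, adjusted p = 0.194). After cold storage it was at -0.22 (0.805) and -0.14 (0.857) versus Ctl in CMJ, not called. The CMJ falls versus WI of SOD3, GSTA4 and FLVCR2 stood beside the same difference in the fat cell sum as HMOX2.

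**Figure D5:**
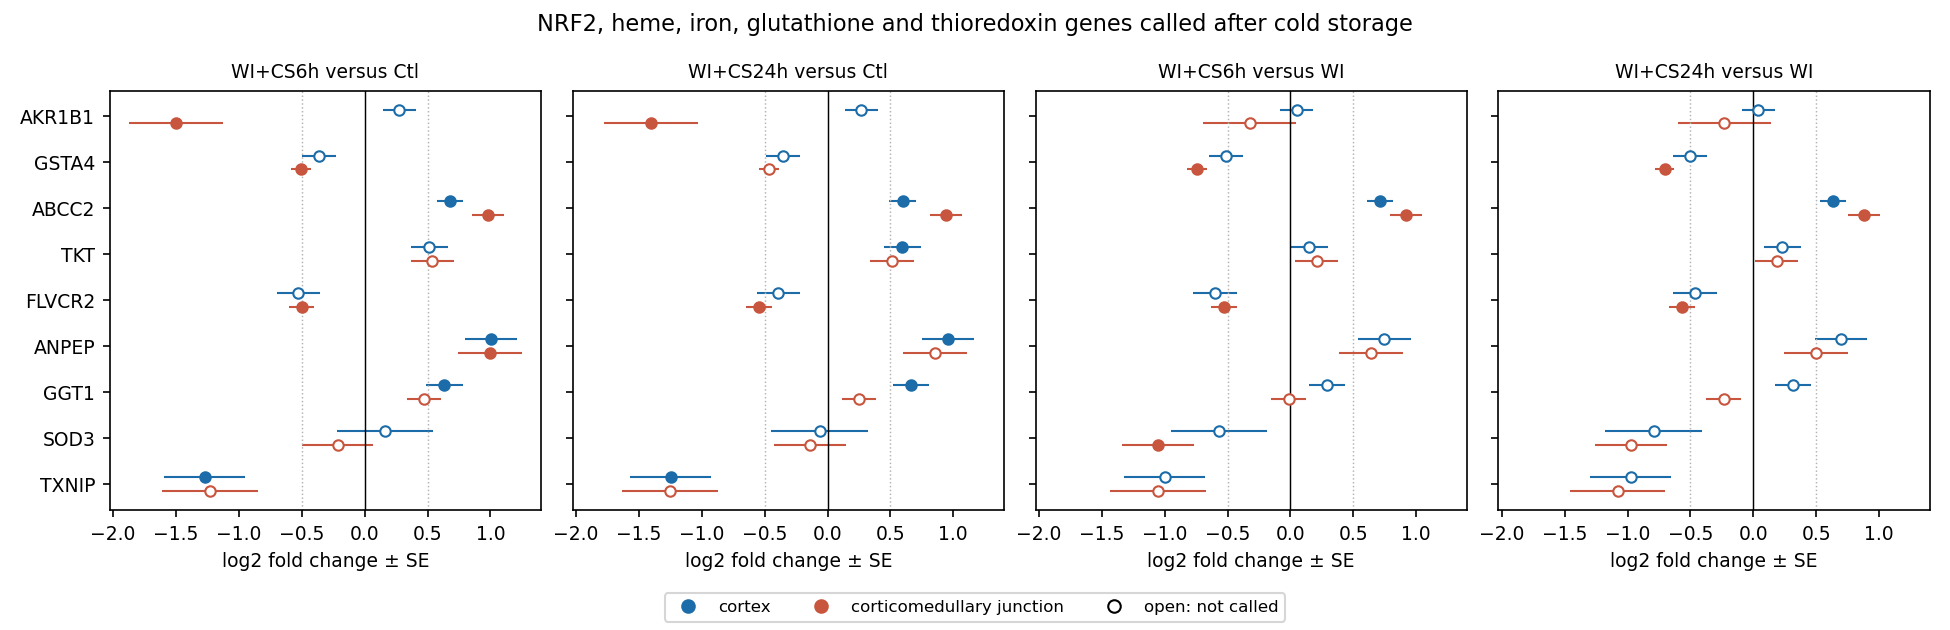
Log2 fold change ± SE (x axis) of the 9 named pathway genes (rows) in 4 comparisons (panels), with cortex in blue and CMJ in red; filled points passed the test and dotted lines mark -0.5 and 0.5. ABCC2 lies between 0.60 and 0.98 versus Ctl in both tissues, AKR1B1 lies far below 0 in the CMJ versus Ctl but not versus WI, and TXNIP lies between -1.27 and -1.23 versus Ctl with large errors.

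Among 6884 named identifiers measured on at least 20 arrays, those whose levels followed HMOX1 most closely over the 40 arrays were ANPEP (r = 0.958), HSPA12A (0.951) and SLC7A7 (0.943). For HMOX2 they were MPPE1 (0.925), STXBP2 (0.902) and FUOM (0.892). These correlations are descriptions over arrays that share groups, slides and labelling.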

How the data were processed

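Each sample was 1 Cy3-labelled array. Per the labels and the methods, the authors scanned the slides and extracted spot intensities with Agilent Feature Extraction 11.5.1.1, then took log2 and quantile-normalised with limma in R 2.15.2; the deposited log2 table matched, for 99.98% of the values of single-spot identifiers, the log2 median signal quantile-normalised over all 40 arrays, and served as an alternative. The deposited processed intensities were taken here as log2, with outlier spots missing, quantile-normalised over 40 arrays (values are relative to that common distribution) and averaged over the spots of an identifier. A genome build is not given in the sources used here. Limma 3.58.1 in R 4.3.3 fitted the 20 arrays of a tissue, or all 40 for tissue contrasts; p was Benjamini-Hochberg adjusted over all identifiers, and calls needed an adjusted p under 0.05 and a log2 fold change of at least 0.5 in size, the thresholds of the methods. Replicates within a group were kidneys from sibling pigs. The main fits took all arrays as independent, although the 6 h and 24 h arrays and the 2 tissues shared kidneys. The p-values therefore do not separate the spread between kidneys from that within them.

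The members and lists were chosen with earlier results of these data known. All member identifiers are named; from each pathway list, up to 8 genes called versus Ctl or WI; likeness only for HMOX1 and HMOX2. Same-numbered arrays of the cold-stored groups deviated together in 3 of 4 pairings of time or tissue (correlation over 0.1 in every pair between times in CMJ, and between tissues at 6 h and at 24 h), and not between times in cortex, in Ctl or in WI, so numbers were used as a block only in alternatives. The 40 arrays lay on 10 slides of 4 and 2 scan days, each day holding 2 or 3 arrays of every group. Alternatives changed scaling, background correction, filters, probes, blocks and arrays. A list of red cell markers is not reported here.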

Additional observations from a re-analysis of the deposited data

Results flagged for a closer look

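In groups of 5, an array was marked where its gap to the nearest other array was over 0.71 of the range of the group. Among 96 values of a member identifier in a group, 4 were marked, and chance marks about 5 percent. In WI cortex, number 2 was high for NQO1, at 6.35 against a next value of 5.75 (gap over range 0.781), and for GCLC, at 6.02 against 5.47 (0.749). GCLM TC522882 was low on number 5 in WI+CS6h cortex, at 9.73 against 10.19 (0.895), and in WI+CS24h cortex, at 9.78 against 10.11 (0.717). On number 5 of both groups S100A12 was high and the proximal tubule sum low, and the part of these in the GCLM values was not tested.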

How the results depend on the processing

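No member call changed direction under an alternative, while values near 0 that were not called could, such as SOD3 in WI+CS24h cortex versus Ctl, at -0.06 and, without the cold-stored arrays numbered 5, 0.10. HMOX1 in WI+CS6h cortex versus Ctl kept its direction and call under 13 of 15 alternatives, the exceptions being the 2 within-day fits, and HMOX1 in WI+CS24h cortex under 11, TXNRD1 NM_214154 in WI+CS24h cortex under 9, HMOX2 in WI+CS24h CMJ under 10 and in WI+CS6h cortex under 7. The other HMOX1 calls held under 5 alternatives each. Main counts of called members were 3 versus Ctl and 2 versus WI in cortex, and 1 versus Ctl and 1 versus WI in CMJ, with 20 pathway calls versus Ctl. Scaling to the 75th percentile gave 0 for the last 3 member counts. Quantile normalisation within each group, which moved the median of all identifiers by over 0.1 in 8 comparisons (by up to 0.241), gave 2 and 2 in CMJ. Normexp gave 0 versus WI in cortex, 0 and 0 in CMJ and 12 pathway calls. Filtering dim identifiers gave 4 versus WI in cortex and 2 versus Ctl in CMJ, and the brightest probe gave 4, 2 and 3 for these and versus WI in CMJ. The deposited log2 table gave 5, 0 and 2 for the same counts. With the replicate number as a block, the counts were 1 versus WI in cortex, where HMOX2 lost its call (adjusted p = 0.0547), and 2 versus Ctl in CMJ, and no other count moved by over 1.5 times. A slide block gave 1 versus Ctl in cortex, 0 versus WI in cortex and 0 versus Ctl in CMJ. Within scan day 1 all 4 member counts and the pathway count were 0, and within day 2 they were 0, 0, 0, 2 and 5. Fitting the compared groups only gave 0 versus WI in cortex, 0 and 0 in CMJ and 13 pathway calls. Chosen after seeing the data, leaving out the cold-stored arrays numbered 5 gave 7 versus WI in CMJ, and the share of spots well above background as a covariate gave 0 versus Ctl and 2 versus WI in CMJ. Without 1 array, the counts ran from 1 to 4 versus Ctl and 0 to 3 versus WI in cortex, 0 to 3 and 0 to 4 in CMJ, and 15 to 27 for the pathway. Counts between times, tissues and for the interaction stayed at 0 in all of these. The causes of these shifts were not tested.

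Saturation limits FTH1 and low signal limits TXNRD1 AF277894. GCLC, NQO1 and HMOX2 adjusted p-values of WI versus Ctl rest on 5 kidneys a group. Calls near the fold limit, such as TXNRD1 at -0.50, depend on where the limit is set.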
